A study of Mus musculus with 6 samples.

Results

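The 5 genes encoding the NF-κB subunits (Nfkb1, Nfkb2, Rel, Rela and Relb) and 5 genes encoding the kinases that activate them (Chuk, Ikbkb, Ikbkg, Ikbke and Map3k14, with Ikbkg encoding the regulatory subunit of the kinase complex) were described in D4M-3A, a melanoma line of the mouse, with and without a CRISPR-Cas9 construct against Nfkbiz. The 10 genes were chosen by name among 43043 genes listed, with earlier results of these data known. All 10 were among the 14419 genes that passed the filter on low counts. Bulk RNA was sequenced from 3 samples of control cells (Ctrl) and 3 of knockout cells (Nfkbiz KO). Ctrl cells were transduced by lentivirus with a CRISPR-Cas9 construct that was empty, Nfkbiz KO cells with one directed at Nfkbiz. Both were selected with puromycin and kept in RPMI-1640 medium with fetal calf serum, and no inflammatory stimulus is named for them. The sources used here do not say whether the lines were pools or single clones. Nor do they say whether the empty and the Nfkbiz construct shared a vector, since the CRISPR vectors are listed without the cell line. The study describes the samples of a condition as independent experiments without saying whether they came from separate transductions, so p-values measure the spread between these samples. The comparison asks how far the RNA of the NF-κB machinery itself differed between the cells, since the targeted gene encodes IκBζ, a nuclear cofactor that binds NF-κB subunits.

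NF-κB factors are dimers of related subunits held inactive in the cytoplasm by IκB proteins. In the canonical route, IKKα, IKKβ and the regulatory subunit NEMO phosphorylate an IκB, which is degraded, and p65-p50 dimers enter the nucleus. In the non-canonical route, the kinase NIK accumulates, activates IKKα and triggers processing of p100 to p52, which pairs with RelB. These steps act on proteins, and RNA levels do not measure them. NF-κB factors are known to act on κB sites in promoters, some of which lie in genes of their own subunits and inhibitors.

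Promoter sequence was available for 7 of the 10 genes, in 12 windows from 250 bases before to 50 bases after an annotated start (RefSeq, GRCm38.p6). Nfkb1, Relb and Ikbkb were not among them. The κB consensus, a motif of 10 bases, was searched on both strands. It was found in 4 of the 12 windows, which belonged to Rel (1 window) and Nfkb2 (3 windows). Among all 32851 windows of the same length, 8.46% held it, and 4.51% held the stricter form that requires A or T at the sixth base, which all of the matches in Rel and Nfkb2 also met. No match was found in the windows of Rela, Chuk, Ikbkg, Ikbke and Map3k14. The 250 bases before the start are shown for Rel and the first Nfkb2 start, which hold matches, and for Ikbke and the first Ikbkg start, whose RNA differed between the groups and which hold none. Bases are written 5′ to 3′ along the gene's strand, and capitals mark the bases covered by a match.
Rel, chr11:23770970-23771219, minus strand: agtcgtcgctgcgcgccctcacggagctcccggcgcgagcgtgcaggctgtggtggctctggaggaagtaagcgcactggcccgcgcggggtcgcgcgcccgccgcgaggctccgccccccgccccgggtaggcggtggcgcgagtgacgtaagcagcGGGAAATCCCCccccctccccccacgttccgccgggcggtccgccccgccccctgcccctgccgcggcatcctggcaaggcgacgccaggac
Nfkb2, chr19:46304487-46304736, plus strand: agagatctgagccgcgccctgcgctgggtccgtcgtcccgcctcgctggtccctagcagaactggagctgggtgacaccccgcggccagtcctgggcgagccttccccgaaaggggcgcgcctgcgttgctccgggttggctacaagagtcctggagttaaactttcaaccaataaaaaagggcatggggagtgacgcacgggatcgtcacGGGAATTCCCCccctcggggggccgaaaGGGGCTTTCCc
Ikbke, chr1:131279564-131279813, minus strand: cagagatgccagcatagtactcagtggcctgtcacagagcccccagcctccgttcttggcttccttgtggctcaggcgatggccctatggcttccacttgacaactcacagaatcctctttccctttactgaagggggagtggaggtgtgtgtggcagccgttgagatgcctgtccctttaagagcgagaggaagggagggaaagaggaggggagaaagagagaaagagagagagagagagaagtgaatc
Ikbkg, chrX:74393041-74393290, plus strand: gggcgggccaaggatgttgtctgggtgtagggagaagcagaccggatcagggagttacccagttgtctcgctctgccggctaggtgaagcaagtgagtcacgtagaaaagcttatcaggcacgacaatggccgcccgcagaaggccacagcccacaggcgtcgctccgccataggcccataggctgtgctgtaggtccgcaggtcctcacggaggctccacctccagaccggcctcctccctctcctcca
In Rel, the overlapping matches GGGAAATCCC and GGAAATCCCC together covered bases 92 to 82 before the start. In the Nfkb2 window, the overlapping matches GGGAATTCCC and GGAATTCCCC together covered bases 39 to 29 before the start, and the match GGGGCTTTCC covered bases 11 to 2 before it. The matches describe the letters of these windows, and binding was not measured here.

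The targeted gene Nfkbiz had 69.1, 75.2 and 63.4 TPM (a level corrected for transcript length and for depth) in the Ctrl samples. In the Nfkbiz KO samples it had 34.8, 34.7 and 35.1 TPM, so its RNA was lower but still present in the knockout. The study reports efficient depletion of IκBζ protein in D4M-3A by immunoblot, which RNA levels do not measure. Samples held between 32219900 and 44927203 reads on genes, and a total of 3 counts, the level that a count of 0 still allows, corresponded to at most 0.0931 CPM (read counts scaled to library size), by counting error only. The Ctrl samples differed more among themselves than the Nfkbiz KO samples did. Their read counts differed pairwise by a chi-square per degree of freedom of 25.8 to 65.9, against 3.41 to 5.89. Ctrl replicate 3 had the lowest TPM of its group for 9 of the 10 genes, and Nfkbiz KO replicate 3 for 7. Of 7 melanocyte lineage markers, Sox10 and Tyr had no reads, 5 in all had 20 reads or fewer over the 6 samples, and the summed level was 1.11 to 1.74 TPM in Ctrl and 1.27 to 1.68 TPM in Nfkbiz KO. Of the 3 markers of dedifferentiated melanoma, Ngfr had 20 reads or fewer over the 6 samples, with at most 6 in any sample. The sums, nearly all from Axl and Nes, were 928.6 to 1098.8 TPM in Ctrl and 1123.2 to 1130.7 TPM in Nfkbiz KO. Axl did not pass the test (log2 fold change 0.14, edgeR adjusted p = 0.089), and the called marker, Nes, was lower in Nfkbiz KO (-0.22, adjusted p = 0.0086). Of 6 blood cell markers, 5 had 20 reads or fewer and Cd3e had none, with sums, nearly all from Cd14, of 13.6 to 15.2 TPM in Ctrl and 14.6 to 16.2 TPM in Nfkbiz KO. The 3 epithelial markers summed to at most 0.121 TPM and Epcam had no reads. The 2 endothelial markers summed to 0.53 to 0.796 TPM in Ctrl and 1.31 to 1.83 TPM in Nfkbiz KO, where Cdh5 was higher (log2 fold change 1.34, standard error 0.27, edgeR adjusted p = 0.0023) and Pecam1 did not pass the test (-0.16, adjusted p = 0.88). The part of this difference in the results was not tested. In bulk RNA, fewer cells with a transcript and less of it per cell cannot be told apart.

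Ikbke showed the largest change of the 10 genes and was lower in Nfkbiz KO, as were Map3k14, Ikbkb and Nfkb1. Nfkb2, Ikbkg, Rel and Relb were higher. Rela and Chuk did not pass the test. In all, 8 of the 10 genes passed an adjusted p of 0.05 in edgeR's quasi-likelihood test of the read counts, adjusted by Benjamini-Hochberg over the whole table, as 36.6% of all genes tested did. The 4 higher genes stand beside 18.2% of all genes called higher, and the 4 lower genes beside 18.4% called lower. Since the 10 genes were chosen with earlier results known, these shares are only set side by side. The changes of the 10 genes were small. The median absolute log2 fold change was 0.29 for the 10 genes and 0.19 for all genes tested. None of the 10 met the study's threshold, which asks for more than a 2-fold change, more than 4 TPM (the unit taken here) between the group means and an adjusted p of at most 0.05, and which 1.79% of the genes tested met in edgeR. DESeq2 likewise gave 0 of them a fold change above 2. In normalized counts (CPM), the values of the groups stayed apart for 8 of the 10 genes, and for 48.4% of all genes. On the log2(TPM + 1) scale, limma called 5 of the 10 genes, of which Nfkb2, Rela, Relb and Ikbkg (4 genes) were higher and Ikbke (1 gene) lower. The share of all genes that limma called on this scale is not given here, so these counts stand without a baseline. The 2 scales differ for all genes, with a median log2 fold change of -0.02 in the counts and 0.06 on the log2(TPM + 1) scale. Each of the 10 genes kept its direction under all 14 alternatives.

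**Figure D1:**
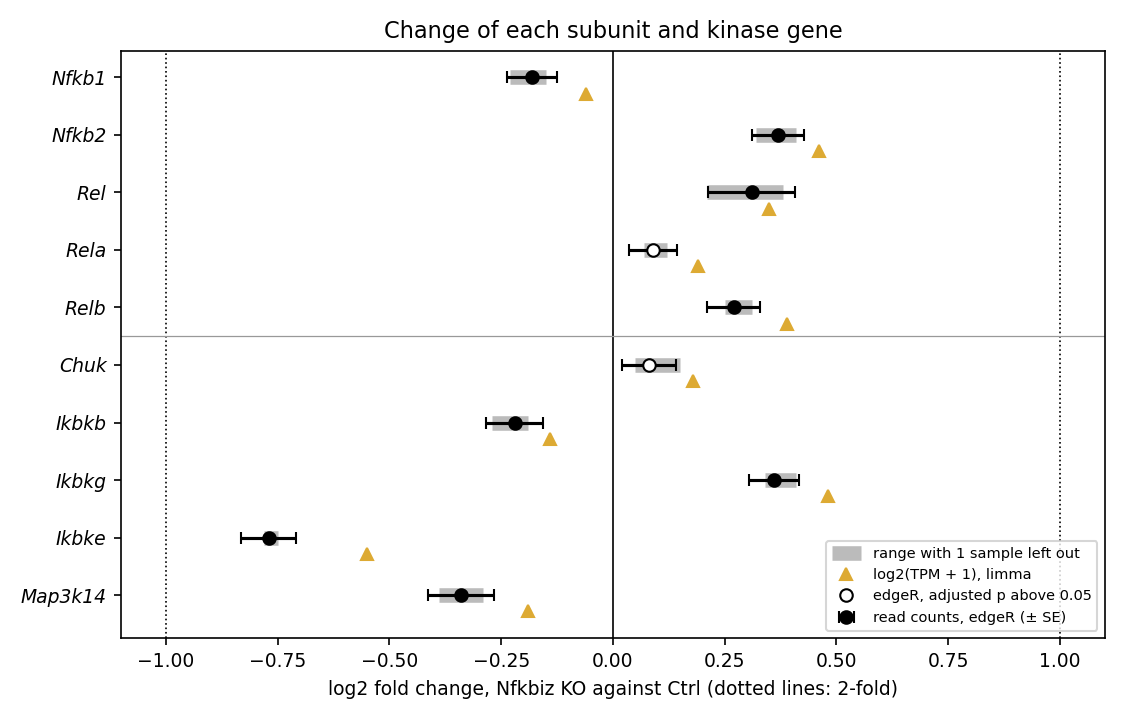
Log2 fold change of each gene in Nfkbiz KO against Ctrl (horizontal axis), with subunit genes above and kinase genes below the grey line. Circles are edgeR estimates from read counts with their standard error (filled where the adjusted p was 0.05 or less), grey bars the range with 1 sample left out, triangles the estimate on the log2(TPM + 1) scale and dotted lines a 2-fold change. Ikbke lies farthest from 0 at -0.77, and no gene reaches a dotted line.

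Among the subunits, Nfkb2 and Relb, the genes of the non-canonical pair, were called higher, as was Rel. Nfkb2 encodes p100, which serves as an inhibitor until it is processed to the DNA-binding subunit p52. It had 118.8, 118.6 and 99.6 TPM in the Ctrl samples and 154.4, 158.7 and 151.6 TPM in the Nfkbiz KO samples. Every Nfkbiz KO sample lay above every Ctrl sample, also in CPM, and Ctrl replicate 3 was low. The log2 fold change of Nfkb2 was 0.37 (standard error 0.058, edgeR adjusted p = 0.00035), a fold change of 1.29, and between 0.32 and 0.41 with 1 sample left out. Nfkb2, on chromosome 19, overlaps Psd and 4833438C02Rik on the opposite strand, and the reads were counted without regard to strand. Psd, at 2.49 to 3.08 TPM in Ctrl and 3.44 to 4.74 TPM in Nfkbiz KO, was also higher (log2 fold change 0.38, edgeR adjusted p = 0.00057), whereas the value for 4833438C02Rik was -0.03 (edgeR adjusted p = 0.89). How reads were shared between these genes was not tested.

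Relb encodes RelB, the transactivating partner of p52. Its level was 38.1, 35.2 and 33.6 TPM in Ctrl and 46.8, 48.5 and 45.2 TPM in Nfkbiz KO. The groups did not overlap, and the gap between them was wider than the range of either. Its log2 fold change was 0.27 (standard error 0.059, edgeR adjusted p = 0.0034), a fold change of 1.2, and 0.25 to 0.31 with 1 sample left out. No gene of the annotation used here overlaps Relb or Rel.

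Rel, which encodes c-Rel, the subunit best known from lymphocytes, was the least abundant of the 10 genes in Ctrl. It had 5.49, 5.92 and 4.32 TPM in Ctrl and 7.29, 7.04 and 6.4 TPM in Nfkbiz KO, from 443 to 634 reads a sample. The Nfkbiz KO values were all higher, and the Ctrl values were the more scattered. For Rel the log2 fold change was 0.31 (standard error 0.098, edgeR adjusted p = 0.027), with the largest standard error among the 10 genes. The call for Rel was lost without Ctrl replicate 3 (log2 fold change 0.21, edgeR adjusted p = 0.068), without Nfkbiz KO replicate 1 (0.27, adjusted p = 0.1) or without Nfkbiz KO replicate 2 (0.3, adjusted p = 0.081).

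Of the canonical pair, Rela did not pass the test and Nfkb1 fell by a small amount. Rela encodes p65, which carries the transactivation domain of the canonical dimer. It had 108.1, 106.3 and 99.5 TPM in Ctrl and 122.3, 123.0 and 114.0 TPM in Nfkbiz KO. These values did not overlap, but in CPM the groups did (95.9 to 101.3 in Ctrl and 101.1 to 107.7 in Nfkbiz KO). The log2 fold change in the counts was 0.09 (standard error 0.053, edgeR adjusted p = 0.22). On the log2(TPM + 1) scale it was 0.19 and passed the test (limma adjusted p = 0.03), so that the call for Rela depended on the scale.

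Nfkb1 encodes p105, the precursor of p50, which binds DNA but lacks a transactivation domain. Its 54.5, 55.0 and 47.2 TPM in Ctrl overlapped the 50.6, 50.7 and 48.1 TPM in Nfkbiz KO. In CPM it was lower in every Nfkbiz KO sample (177.9 to 185.5) than in any Ctrl sample (194.0 to 215.9). The log2 fold change in the counts was -0.18 (standard error 0.056, edgeR adjusted p = 0.023). On the log2(TPM + 1) scale it was -0.06 (limma adjusted p = 0.51). The call for Nfkb1 was kept in 1 of the 6 fits with 1 sample left out, and the direction in all 6. It was lost without Ctrl replicate 1 (-0.15, edgeR adjusted p = 0.086), Ctrl replicate 2 (-0.16, adjusted p = 0.052), Nfkbiz KO replicate 1 (-0.19, adjusted p = 0.08), Nfkbiz KO replicate 2 (-0.19, adjusted p = 0.065) or Nfkbiz KO replicate 3 (-0.16, adjusted p = 0.11). Without Ctrl replicate 3 it was kept (-0.23, edgeR adjusted p = 0.00063).

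**Figure D2:**
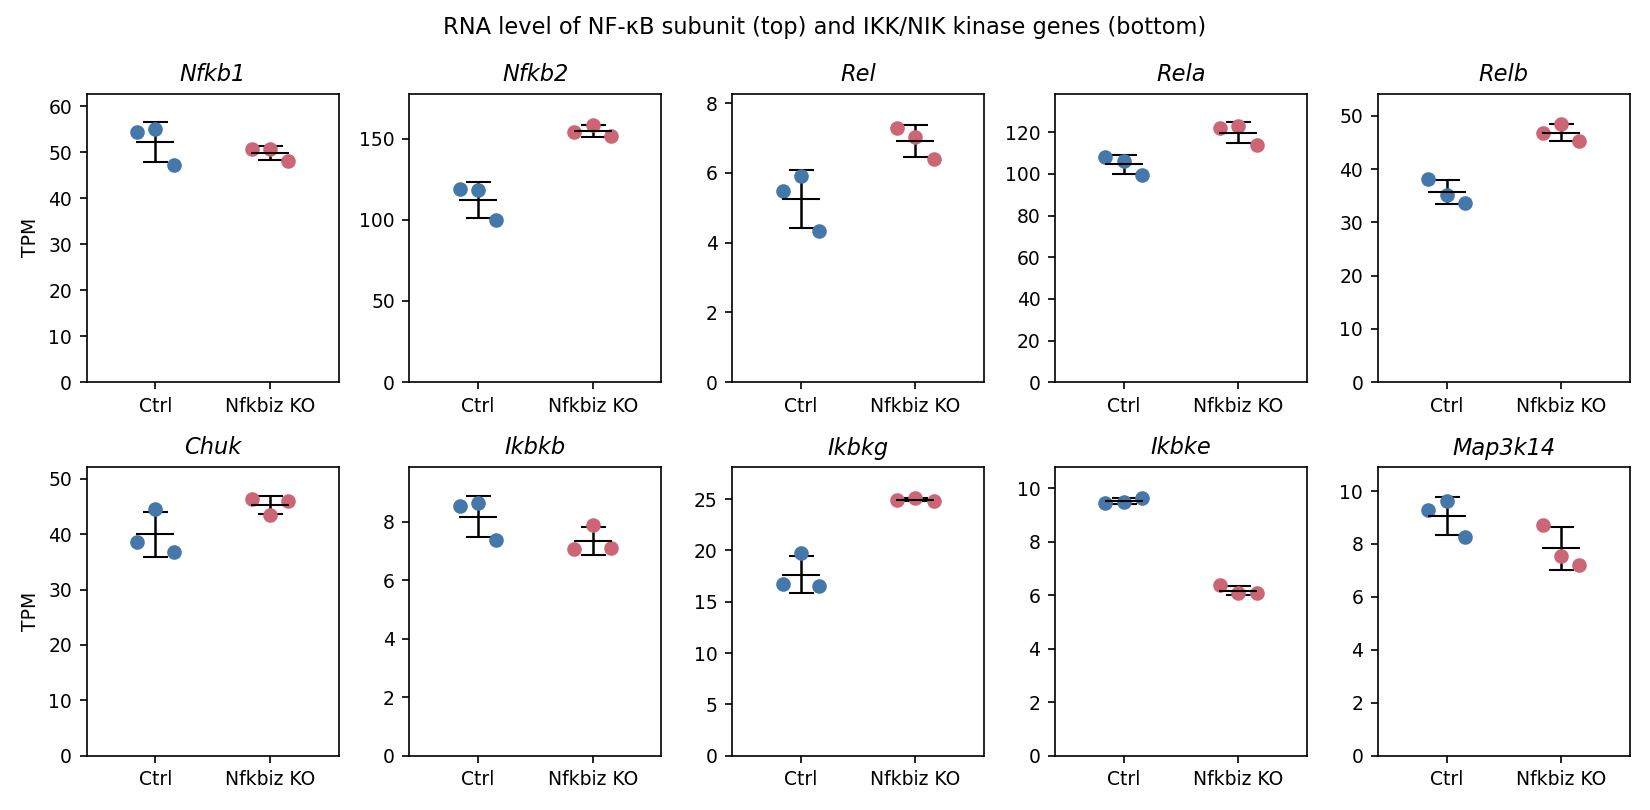
TPM of each gene (vertical axis, from 0, with its own scale in each panel) in the 3 Ctrl (blue) and 3 Nfkbiz KO (red) samples, drawn from left to right as replicates 1 to 3. Points are samples, the horizontal bar their mean and the whiskers the SD. Nfkb2, Rel, Rela, Relb and Ikbkg lie higher and Ikbke lower in every Nfkbiz KO sample than in any Ctrl sample, while Nfkb1, Chuk, Ikbkb and Map3k14 overlap. The share of all genes whose groups do not overlap in TPM is not given here.

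Among the kinases, Ikbke stood out. It encodes IKKε, a kinase related to TBK1 that phosphorylates interferon regulatory factors and lies outside the canonical IKK complex. It had 9.44, 9.48 and 9.64 TPM in Ctrl and 6.38, 6.07 and 6.08 TPM in Nfkbiz KO, from 1108, 1217 and 1410 reads against 609, 770 and 858. The samples of each group lay close together, and the groups were far apart. Its log2 fold change was -0.77 (standard error 0.061, edgeR adjusted p = 9e-07), a 1.7-fold lower count, and -0.78 to -0.75 with 1 sample left out. Among all genes tested, 9.86% had a larger absolute log2 fold change. Non-coding genes annotated on the strand opposite Ikbke had at most 6 reads in any sample or were not listed.

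In the canonical complex, Ikbkg rose, Ikbkb fell and Chuk did not pass the test. Chuk encodes IKKα, the catalytic subunit that also serves the non-canonical route, and was the most abundant of the kinase genes. Its 38.6, 44.6 and 36.7 TPM in Ctrl overlapped the 46.4, 43.4 and 45.9 TPM in Nfkbiz KO, and the log2 fold change was 0.08 (standard error 0.06, edgeR adjusted p = 0.3). It did not pass the test with any sample left out (edgeR adjusted p from 0.053 to 0.54), nor on the log2(TPM + 1) scale (limma adjusted p = 0.14).

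Ikbkb encodes IKKβ, the main IκB kinase of the canonical route. It had 8.52, 8.62 and 7.36 TPM in Ctrl and 7.05, 7.87 and 7.08 TPM in Nfkbiz KO. These values overlapped through Ctrl replicate 3 and Nfkbiz KO replicate 2, whereas in CPM every Nfkbiz KO sample (40.7 to 45.1) was below every Ctrl sample (46.4 to 51.5). In the counts, the log2 fold change was -0.22 (standard error 0.064, edgeR adjusted p = 0.017), and -0.14 on the log2(TPM + 1) scale (limma adjusted p = 0.27). The call for Ikbkb was lost without Ctrl replicate 1 (-0.19, edgeR adjusted p = 0.064), Nfkbiz KO replicate 1 (-0.2, adjusted p = 0.084) or Nfkbiz KO replicate 3 (-0.2, adjusted p = 0.086).

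Ikbkg encodes NEMO, the ubiquitin-binding scaffold without which the canonical complex cannot be activated. It had 16.7, 19.7 and 16.5 TPM in Ctrl and 24.9, 25.1 and 24.8 TPM in Nfkbiz KO. Every Nfkbiz KO sample was higher than every Ctrl sample, and the Nfkbiz KO samples were nearly equal. For Ikbkg the log2 fold change was 0.36 (standard error 0.056, edgeR adjusted p = 0.00029), a fold change of 1.29, and 0.34 to 0.41 with 1 sample left out. Ikbkg, on chromosome X, overlaps G6pdx and Fam3a on the opposite strand. G6pdx, the first enzyme of the pentose phosphate pathway, was more abundant than Ikbkg and was lower in Nfkbiz KO (140.4, 150.3 and 129.8 against 114.3, 114.0 and 113.4 TPM, log2 fold change -0.39, edgeR adjusted p = 6.1e-05), and Fam3a had a value of -0.05 (edgeR adjusted p = 0.64). G6pdx thus differed in the direction opposite to Ikbkg, and how reads were shared between them was not tested.

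Map3k14 encodes NIK, the kinase that starts the non-canonical route and is kept low by protein degradation in resting cells. It had 9.28, 9.64 and 8.25 TPM in Ctrl and 8.73, 7.55 and 7.21 TPM in Nfkbiz KO, and these overlapped through Ctrl replicate 3 and Nfkbiz KO replicate 1. In CPM the groups were apart, at 22.9 to 25.6 in Ctrl and 18.5 to 20.7 in Nfkbiz KO. In the counts, the log2 fold change was -0.34 (standard error 0.074, edgeR adjusted p = 0.0038) and between -0.39 and -0.29 with 1 sample left out. On the log2(TPM + 1) scale it was -0.19 (limma adjusted p = 0.19).

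Levels and proportions within a sample were compared in TPM, which is corrected for length. The 5 subunit genes together had 324.9, 321.1 and 284.4 TPM in Ctrl and 381.5, 387.9 and 365.4 TPM in Nfkbiz KO. Their means were 310.1 ± 22.4 and 378.3 ± 11.6 TPM (SD, n = 3 each), and the groups did not overlap (exact permutation test over samples, two-sided p = 0.1, the smallest p that 3 against 3 samples allow). In CPM, the log2 difference of the sum was 0.11 in place of 0.29. CPM is not corrected for length, so a sum in CPM also weights the genes differently from a sum in TPM. The 5 kinase genes had group means of 84.3 ± 6.92 and 91.5 ± 1.8 TPM (SD, n = 3 each), and the samples overlapped (exact permutation test, two-sided p = 0.3). In CPM the sign of the kinase sum turned, from 0.12 to -0.05 on the log2 scale. In RPKM, the authors' other length-corrected unit, it was 0.05, and in TPM without Ctrl replicate 3 it was 0.07.

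In Ctrl, Nfkb2 and Rela had the highest levels, with ranges that overlapped. Nfkb1 followed, then Chuk and Relb (overlapping), Ikbkg, and then Ikbke, Map3k14 and Ikbkb, whose neighbouring ranges overlapped, with Rel lowest. In Nfkbiz KO, Nfkb2 lay above Rela without overlap. Relb, below Nfkb1 without overlap in Ctrl, reached 45.2 to 48.5 TPM and overlapped the range of Nfkb1 (48.1 to 50.7 TPM). Ikbke was the lowest of the 10 genes in Nfkbiz KO, below Rel, which it exceeded in every Ctrl sample.

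Within the subunit sum, Nfkb1 had a smaller and Nfkb2 a larger share in every Nfkbiz KO sample than in any Ctrl sample. Nfkb1 made up 16.8 ± 0.272% of the Ctrl sum and 13.2 ± 0.102% of the Nfkbiz KO sum (SD, n = 3 each), and Nfkb2 36.2 ± 1.01% and 41.0 ± 0.505%. Relb made up 11.5 ± 0.468% and 12.4 ± 0.118%, and Rela 33.8 ± 1.05% and 31.7 ± 0.429%, in each case without overlap between the groups. The share of Rel overlapped, at 1.52 to 1.84% in Ctrl and 1.75 to 1.91% in Nfkbiz KO. Among the kinase genes, the share of Ikbkg was 20.9 ± 0.583% in Ctrl and 27.3 ± 0.627% in Nfkbiz KO, and that of Ikbke 11.3 ± 0.995% and 6.75 ± 0.0757%. Ikbkb and Map3k14 also made up a lower share in every Nfkbiz KO sample, and the share of Chuk overlapped. Shares of 1 sum are not independent, since one can rise only if others fall.

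**Figure D3:**
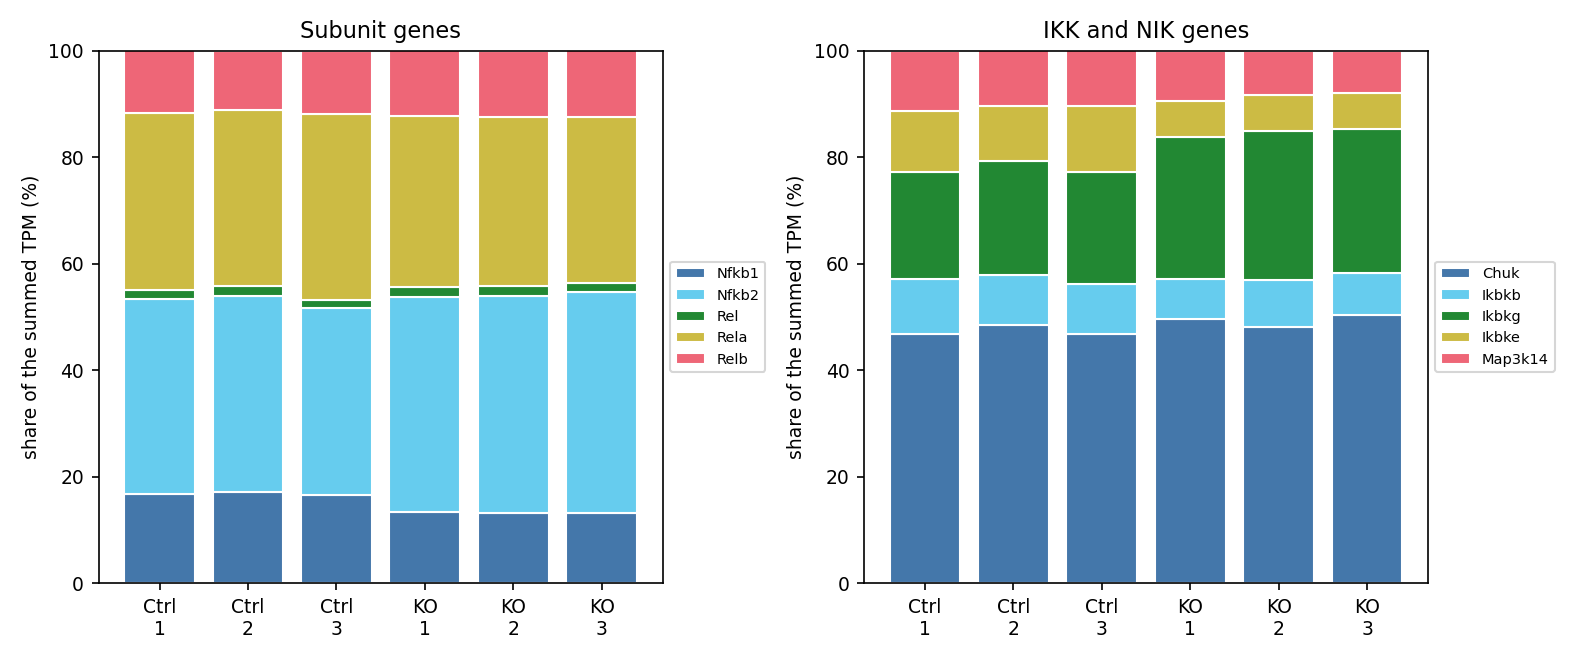
Share of each gene in the summed TPM of the 5 subunit genes (left) and of the 5 kinase genes (right), in percent, for each sample (bars, Ctrl and Nfkbiz KO replicates 1 to 3). The Nfkb1 segment narrows from between 16.6 and 17.1% in Ctrl to between 13.1 and 13.3% in Nfkbiz KO, and the Ikbkg segment widens from between 20.2 and 21.4% to between 26.6 and 27.9%.

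Ratios within a sample do not depend on how samples are scaled against each other. The ratio of Nfkb2 to Nfkb1, the genes of both precursor proteins, was 2.18, 2.15 and 2.11 in Ctrl and 3.05, 3.13 and 3.15 in Nfkbiz KO. It differed by 0.53 on the log2 scale (standard error 0.02), more than the spread within either group and with the smallest standard error of the 5 ratios. Relb to Rela was 0.341 ± 0.0108 in Ctrl and 0.391 ± 0.00749 in Nfkbiz KO, and Rel to Rela 0.05 ± 0.00618 and 0.0576 ± 0.00178 (SD, n = 3 each). The Rel to Rela difference was 0.21 on the log2 scale with a standard error of 0.11, the largest of the 5, and it was 0.11 without Ctrl replicate 3. Ikbkb to Chuk, the catalytic subunits of the canonical complex, averaged 0.205 ± 0.014 and 0.163 ± 0.0166, and Ikbke to Chuk 0.24 ± 0.0254 and 0.137 ± 0.00398 (SD, n = 3 each). None of the 5 ratios overlapped between the groups, and each had an exact permutation p of 0.1 (two-sided, the smallest possible here), which remained 0.1 after Benjamini-Hochberg adjustment over the 5.

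For the genes around the members, 6 lists of 49 genes in all were counted, also chosen with earlier results of these data known. Of these, 21 had an adjusted p of 0.05 or less in edgeR, of which 12 rose and 9 fell, beside 36.6% of all genes tested that were called, 18.2% higher and 18.4% lower. Nothing particular to a list is read from its count. The same holds for the counts below with 1 sample left out or with limma, for which the share of all genes called is not given here. The median log2 fold change of the 49 was 0.05, against -0.02 over all genes tested. Among the 5 other IκB genes, 1 rose and 1 fell (2 of 5 called, median log2 fold change 0.08). Bcl3, whose product binds p50 and p52 dimers in the nucleus, had 56.2, 59.2 and 58.1 TPM in Ctrl and 24.4, 22.0 and 22.8 TPM in Nfkbiz KO (log2 fold change -1.45, standard error 0.064, edgeR adjusted p = 5.9e-09), and was the 1 gene of the lists past the study's threshold. Nfkbie, which encodes IκBε, had 24.4, 23.2 and 21.4 TPM in Ctrl and 35.3, 32.5 and 32.2 TPM in Nfkbiz KO (log2 fold change 0.41, standard error 0.068, edgeR adjusted p = 0.00052). Both thus lay without overlap between the groups, in opposite directions.

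Of 9 genes that control NIK, 3 rose and 2 fell (5 of 9 called, beside 36.6% of all genes tested, median log2 fold change -0.04). Traf3, part of the complex that degrades NIK, rose by 0.35 on the log2 scale (edgeR adjusted p = 0.003) and Birc3, a ubiquitin ligase of that complex, by 0.28 (adjusted p = 0.017). Tnfrsf1b, a TNF receptor, fell by 0.32 (edgeR adjusted p = 0.00057) and Ltbr, the lymphotoxin β receptor, by 0.21 (adjusted p = 0.024). The count of 5 called genes fell to 3 without Ctrl replicate 1 and to 2 without Nfkbiz KO replicate 1 or replicate 3. On the canonical route to IKK, 2 of 13 genes rose and 1 fell (3 of 13 called, beside 36.6% of all genes tested, median log2 fold change 0.08). The log2 fold changes were -0.27 for Tab1, 0.2 for Tab2, which encode adaptors of the kinase TAK1, and 0.21 for Rnf31, a subunit of the linear ubiquitin ligase (edgeR adjusted p = 0.018, 0.014 and 0.014). This count was 1 without Nfkbiz KO replicate 1 or replicate 3 and 0 without Nfkbiz KO replicate 2.

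Of 6 partners of IKKε, 2 rose and 1 fell (3 of 6 called, beside 36.6% of all genes tested, median log2 fold change 0.02). Tbkbp1, an adaptor of TBK1 and IKKε, had 10.3, 10.6 and 9.0 TPM in Ctrl and 6.61, 7.58 and 7.51 TPM in Nfkbiz KO (log2 fold change -0.56, standard error 0.087, edgeR adjusted p = 0.00028). Irf7, an interferon regulatory factor that IKKε phosphorylates, had 434.4, 419.9 and 408.4 TPM in Ctrl and 663.0, 657.4 and 649.4 TPM in Nfkbiz KO (log2 fold change 0.55, edgeR adjusted p = 9.4e-06). Azi2, another adaptor, rose by 0.29 (edgeR adjusted p = 0.0014). The adaptors thus moved in opposite directions, and Tbk1 itself, named here after its value was seen, had a log2 fold change of 0.02 (edgeR adjusted p = 0.8). Among 8 genes of the IκB ubiquitin ligase and of p105 and p100 partners, Tnip1 rose by 0.23 (edgeR adjusted p = 0.0055) and Btrc, the substrate receptor of the ligase, fell by 0.22 (adjusted p = 0.01), so that 2 of 8 were called beside 36.6% of all genes tested. The median over the list was -0.03 on the log2 scale. This count of 2 was 1 without Nfkbiz KO replicate 2 or replicate 3.

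Of 10 known NF-κB target genes, 4 rose and 3 fell (7 of 10 called, beside 36.6% of all genes tested, median log2 fold change 0.15). Traf1, an adaptor of TNF receptors, had 1.3, 1.23 and 1.33 TPM in Ctrl and 4.66, 4.69 and 4.15 TPM in Nfkbiz KO (log2 fold change 1.74, standard error 0.11, edgeR adjusted p = 1.2e-07). It was the largest change in the lists, and its level stayed low. Vcam1, an adhesion molecule, rose by 0.51 (edgeR adjusted p = 2.5e-05) and Tnfaip3, which encodes the inhibitor A20, by 0.46 (adjusted p = 0.00025). Cxcl1, a chemokine, had 163.3, 204.3 and 179.2 TPM in Ctrl and 122.0, 111.3 and 132.5 TPM in Nfkbiz KO (log2 fold change -0.67, standard error 0.078, edgeR adjusted p = 2.8e-05). Called targets thus lay on both sides of 0. The count of 7 called targets ranged from 5 to 9 with 1 sample left out, and was 5 with limma on either log2 TPM scale.

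**Figure D4:**
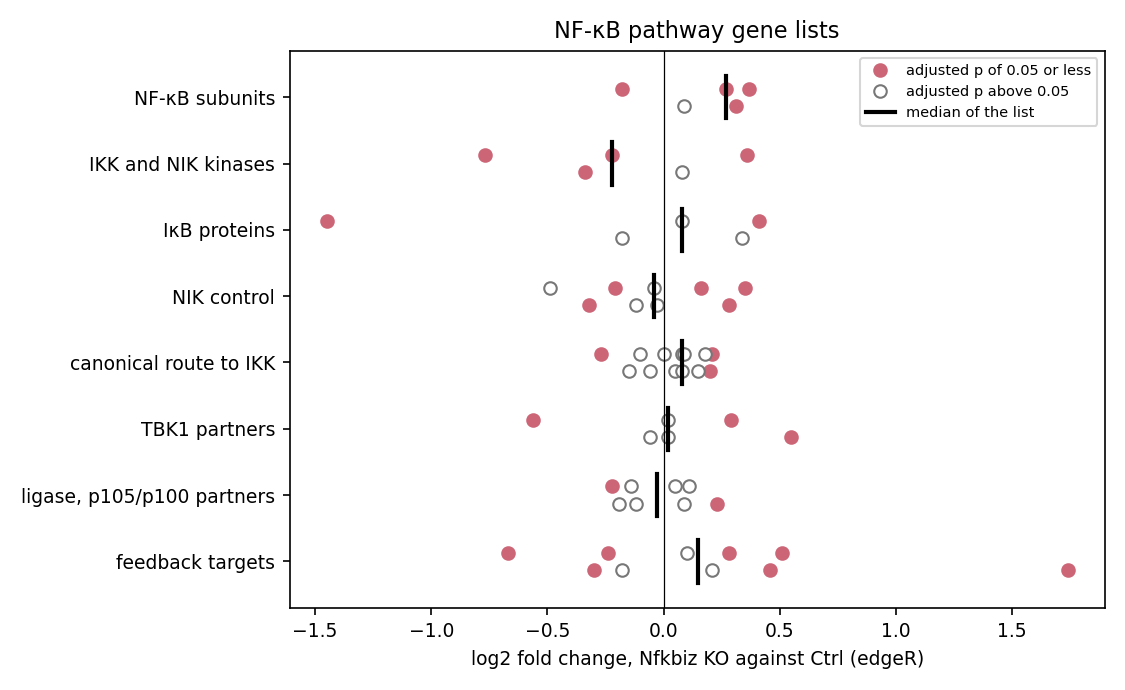
Change between the groups (horizontal axis, log2 scale, positive where Nfkbiz KO was higher, edgeR) of each gene (points) in the subunit and kinase groups and the 6 lists (vertical axis). Filled points had an adjusted p of 0.05 or less and black bars are list medians, which lie between -0.04 and 0.15 for the 6 lists, while single genes reach from -1.45 for Bcl3 to 1.74 for Traf1.

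For the members with the largest absolute change, Ikbke and Nfkb2, the genes of most similar profile were sought by the Euclidean distance between log2 CPM values centred on their mean over the 6 samples, among 14418 genes. For Ikbke these were Arid3a (distance 0.0815), Usp35 (0.0852) and Ncam1 (0.086), where the median gene had a distance of 1.0. Their log2 fold changes were -0.74, -0.82 and -0.76. For Nfkb2 they were Eng (distance 0.0375), Dgke (0.0445) and Adpgk (0.0552), against a median of 0.618, with log2 fold changes of 0.35, 0.38 and 0.36. Genes with a like change between the groups are near by construction, and the 6 samples are the same as in the tests above.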

How the data were processed

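Total RNA of 3 Ctrl and 3 Nfkbiz KO samples of D4M-3A cells was sequenced by the study in paired-end mode, and samples were grouped by their labels. The authors mapped and counted the reads with CLC Genomics Workbench at default settings, without using strand, against GRCm39 per the study's methods (the submitters' processing notes name GRCm38). The annotation version is not given in the sources used here. The deposited read counts per gene, total and unique, are raw. The authors' TPM and RPKM values are normalized for length and depth, and since genes with reads can have a TPM of 0, counts also hold reads that TPM does not. Decimal commas were converted, and RPKM served only as an alternative for sums and ratios.

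Total gene reads (96.5 to 96.9% unique) were filtered with filterByExpr (minimum count 10, minimum total count 15), normalized by TMM (factors 0.9781 to 1.011) and tested with edgeR 4.0.16 in R 4.3.3 by the quasi-likelihood test, adjusted by Benjamini-Hochberg over 14419 genes. The study's threshold was more than a 2-fold change with an adjusted p of at most 0.05 and a difference over 4, whose unit is not stated and was taken as TPM. Procedures were tested on simulated data. Exact permutation tests used SciPy 1.17.1, and figures matplotlib 3.10.9. Alternatives were RLE factors, the likelihood-ratio test of edgeR, DESeq2 1.42.0, no filter on low counts, limma 3.58.1 on log2(TPM + 1) and log2(TPM + 0.1), unique reads, a replicate block, and each sample left out. Overlapping genes and chromosomes came from an annotation of GRCm39, promoters from RefSeq.

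The members and gene lists were chosen with earlier results of these data known. Named genes are the 10 members, Nfkbiz, up to 4 called genes of each list with the largest absolute log2 fold change, the 3 nearest profiles of 2 members and, after their values were seen, overlapping genes and others said to be so, and markers. The replicate numbers did not pair the samples (correlations of deviations 0.037, -0.023 and 0.026). Within a group, no samples were duplicates. The study's other cell lines and its tumors were not used here.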

Additional observations from a re-analysis of the deposited data

How the results depend on the processing

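Of 310 values recomputed under the alternatives, 268 kept their direction and their side of the threshold (for counts and values without a test, stayed within the set margin), and 0 reversed a called direction. For counts this margin was wide. It held, for example, 6 members called in place of 8, and 5 or 9 NF-κB targets in place of 7. The 10 members kept their direction, and edgeR's likelihood-ratio test, DESeq2, RLE factors, no filter and unique reads each called 8 of them. The share of all genes called under each alternative is not given here. Limma on log2(TPM + 1) and log2(TPM + 0.1) called 5 each. The calls lost were those of Nfkb1 (-0.06 and -0.07), Rel (0.35 and 0.4), Ikbkb (-0.14 and -0.15) and Map3k14 (-0.19 and -0.21), and Rela gained one (0.19 in both). On these scales the called genes of the NIK list numbered 3 and 3, of the canonical list 5 and 5 (also 5 with RLE factors) and of the ubiquitin ligase list 1 and 1. In CPM, which is not corrected for length, the log2 difference of the subunit sum was 0.11. That of the kinase sum was -0.05, which changed sign without having been called. The stricter κB motif was held by 4.51% of windows. The causes were not tested.

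With each sample left out in turn, between 5 and 7 members were called, between 2 and 5 genes of the NIK list, 0 to 4 of the canonical list and 1 to 3 of the ubiquitin ligase list. These fits hold 1 sample fewer, and the share of all genes called in them is not given here. Of the NF-κB target list, 5 to 9 genes were called. The log2 fold change ranged from -0.23 to -0.15 for Nfkb1, 0.21 to 0.38 for Rel and -0.27 to -0.19 for Ikbkb, the members whose calls were lost. With a block for the replicate number, 8 members were called, with values of -0.77 for Ikbke and 0.37 for Nfkb2, and no member's call changed. Only 3 of 6 samples correlated best with their own number.

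With 3 samples a group, exact tests cannot go below p = 0.1. Reads of overlapping genes and of edited transcripts cannot be separated, and protein, phosphorylation and nuclear entry were not measured here. The study examined protein levels, phosphorylation and chromatin association by other assays, in part in other cell lines.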
